A study of Mus musculus with 2 samples.

Results

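The Mir322 cluster is a run of 7 miRNA genes on the X chromosome of the mouse. Its members were taken by symbol: Mir322, Mir503, Mir351, Mir542 and every locus whose symbol starts with Mir450, which gave Mir450-1, Mir450-2 and Mir450b. They are 7 of the 1973 miRNA loci that were counted, of which 746 had any read. Small RNAs were sequenced from midbrains of mouse embryos (strain B6NCrl) at 14.5 days of gestation. The series held 1 group of 2 biological replicates, with no treatment, mutation or second tissue, so that no contrast between conditions exists and the replicates could only be set beside each other. By the labels each replicate was 1 midbrain from a single pup, collected on a different day. The labels also give both the same pup and pregnancy number, a shared donor identifier and the sex as mixed. Whether they are separate animals is therefore not clear from the labels. If the replicates did not come from separate animals, the SDs below would measure technical spread.

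MicroRNAs are cut from hairpins in longer transcripts, and a mature miRNA of either arm (5p or 3p) guides repression of mRNAs that pair with its seed, bases 2 to 8. The cluster is studied as a brake on cell division: miR-322, the mouse counterpart of human miR-424, and miR-503 repress cyclins and other cell cycle genes and are best known from differentiating muscle. miR-322-5p carries the seed of the miR-15/16 family, and miR-351-5p that of the miR-125 family, whose other members are abundant in the developing brain.

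The mature sequences are shown because the seeds divide the cluster into groups that the genome map does not show. RefSeq (GRCm38.p6) held 14 mature products for the 7 loci, with 12 different seeds. The seed is in capitals, each sequence runs 5′ to 3′, and miR-15a-5p and miR-125a-5p, from outside the cluster, are shown for comparison.
miR-322-5p: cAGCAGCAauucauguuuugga
miR-15a-5p: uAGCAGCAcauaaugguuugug
miR-503-5p: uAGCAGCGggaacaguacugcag
miR-351-5p: uCCCUGAGgagcccuuugagccug
miR-125a-5p: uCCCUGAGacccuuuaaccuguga
miR-542-3p: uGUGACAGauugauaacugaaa
miR-450a-5p: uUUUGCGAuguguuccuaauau
miR-450b-5p: uUUUGCAGuauguuccugaaua
Counted from 1 at the 5′ end, the seed of miR-503-5p differed from that of miR-322-5p by A8G alone, so that miR-503 shares 6 of its 7 seed bases. Outside the seed the pair had less in common, with 11 of 22 aligned positions the same. miR-351-5p had the miR-125 seed in full but only 10 of 24 positions in common with miR-125a-5p. The seed of miR-450b-5p departed from that of miR-450a-5p at G7A and A8G.

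In the coordinates of mm10 the members lay on the minus strand of chromosome X over 6353 nt, in the order Mir322 (chrX:53054255-53054349), Mir503 (chrX:53053984-53054054), Mir351 (chrX:53053255-53053353), Mir542 (chrX:53049403-53049487), Mir450-2 (chrX:53048299-53048367), Mir450-1 (chrX:53048154-53048244) and Mir450b (chrX:53047997-53048078). Mir322 and Mir503 were 200 nt apart, and Mir351 followed 630 nt further on. A gap of 3767 nt separated Mir351 from Mir542, whereas the Mir450 hairpins were 54 and 75 nt apart. No member overlapped another gene in GENCODE M21, where the noncoding gene C430049B03Rik lies just upstream on the same strand and Gm28730 fills part of the gap before Mir542. RefSeq draws C430049B03Rik longer, from 53053112 to 53057190, over Mir322, Mir503 and Mir351 but not over the other 4 members.

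The 7 loci together took 0.705% ± 0.0776 of the sense reads at miRNA loci (SD, n = 2), and most of it came from Mir322. Sense reads are those on the annotated strand, and levels are given as CPM, the sense reads of a locus scaled by the library's total of sense reads. A read here is a whole small RNA, so CPM was compared across loci without a correction for length. How evenly different small RNAs enter a library was not measured, so folds and ranks between loci are those of reads. The cluster stood at 7595 CPM in replicate 1 and 6498 CPM in replicate 2. Its share had an exact Clopper-Pearson 95% interval of 0.753 to 0.766% in the first library and of 0.642 to 0.658% in the second. Without Mir322 its share fell to 0.0831% ± 0.0237.

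Replicate 1 held 7302633 sense reads and replicate 2 held 3966727, so that 1 read was worth 0.137 and 0.252 CPM. Intervals and floors cover counting error only, since PCR copies of a molecule are counted as separate reads. At least 10 reads in each replicate, the minimum for calling a locus detected, were reached by 6 of the 7 members, against 20.1% of all 1973 loci. The exception was Mir450-2, just under the minimum with 8 reads in replicate 2. Reads on the opposite strand were 0 at every member in both libraries.

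Mir322 was among the well expressed miRNAs of the midbrain. It had 48172 reads (6597 CPM) in replicate 1 and 23142 reads (5834 CPM) in replicate 2, a mean of 6215 ± 539 CPM, which placed it 29th of all loci and 51.8 times above the median detected locus. Every rank here counts only reads placed at 1 locus, so that miRNAs with an identical copy elsewhere may rank too low. Its neighbours in that order, Mir18 above at 6728 ± 59.5 CPM and Mir181a-1 below at 6180 ± 130 CPM, differed from it by less than its own SD. The hairpin is printed with its 5p and 3p products in capitals, because the deposited counts join both arms and do not say which was read.
Mir322: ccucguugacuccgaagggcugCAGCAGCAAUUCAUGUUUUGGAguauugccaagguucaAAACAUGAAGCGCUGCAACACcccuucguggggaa

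Mir503, the other cell cycle miRNA of the cluster and 200 nt from Mir322, was far lower. It had 1104 reads (151 CPM) in replicate 1 and 416 reads (105 CPM) in replicate 2. Mir322 exceeded it 43.6-fold in replicate 1 and 55.6-fold in replicate 2. Mir351, which follows Mir503, was higher than it again, with 4347 reads (595 CPM) in replicate 1 and 1343 reads (339 CPM) in replicate 2. Mir351 exceeded Mir503 3.94-fold and 3.23-fold, and Mir322 exceeded Mir351 11.1-fold and 17.2-fold. The order within these 3 loci was therefore Mir322, Mir351 and Mir503 in both libraries, and the levels did not fall in the order of the hairpins along the strand.

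Past the gap Mir542 lay between Mir351 and Mir503 in level, and the Mir450 loci lay below all other members. Mir542, whose 3p product is known as a repressor of the survival gene Birc5, had 1483 reads (203 CPM) in replicate 1 and 702 reads (177 CPM) in replicate 2. Its mean of 190 ± 18.5 CPM lay above the 128 ± 32.7 CPM of Mir503, by 1.34-fold in replicate 1 and 1.69-fold in replicate 2. Mir450b had 307 reads (42.0 CPM) and 152 reads (38.3 CPM), the closest agreement between replicates of any member, with a coefficient of variation of 6.55%.

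Mir450-1 and Mir450-2 were near the bottom of the measurable range. Mir450-1 had 25 and 12 reads in replicates 1 and 2 (3.42 and 3.03 CPM), and Mir450-2 had 24 and 8 reads (3.29 and 2.02 CPM). Their means of 3.22 ± 0.282 and 2.65 ± 0.898 CPM were not separated by the spread of the replicates. Both lay above the level of 3 reads, the upper limit that a count of 0 would allow, which is 0.411 CPM in replicate 1 and 0.756 CPM in replicate 2. Mir450b exceeded the sum of both 6.27-fold and 7.60-fold.

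These low counts are uncertain for a reason that the sequences show. The hairpins of Mir450-2 and Mir450-1 share an exact stretch of 25 nt, printed in capitals, which holds the whole of miR-450a-5p.
Mir450-2: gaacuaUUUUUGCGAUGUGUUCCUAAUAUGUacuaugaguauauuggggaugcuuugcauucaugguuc
Mir450-1: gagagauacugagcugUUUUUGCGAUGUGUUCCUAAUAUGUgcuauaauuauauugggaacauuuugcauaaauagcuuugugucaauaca
The tables put reads with several possible positions in a class outside the genes, 36.2% of all reads in replicate 1 and 36.9% in replicate 2, so a read of miR-450a-5p could not be assigned to either locus. How many such reads there were cannot be read from the tables. The 3p products of the pair differ (miR-450a-1-3p against miR-450a-2-3p: A7G, C9U, A10G, U11C, A19U and A20C), so that a read of the 3p arm could be placed. Mir450b shares 19 nt with Mir450-1, while Mir322, Mir503, Mir351 and Mir542 share at most 13 nt with any other annotated miRNA hairpin that does not overlap them.

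**Figure D1:**
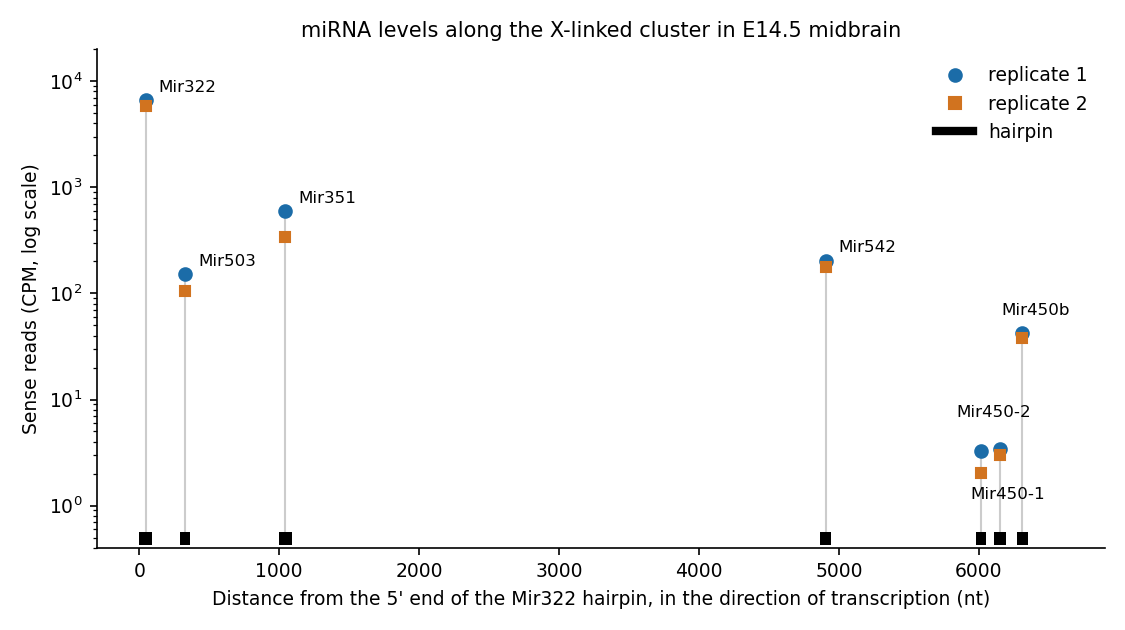
Sense reads of each member (CPM, log scale) against its distance in nt from the 5′ end of the Mir322 hairpin, with circles for replicate 1 and squares for replicate 2. Mir322 stands at 6597 and 5834 CPM, Mir503 drops to 151 and 105 CPM, and the adjacent Mir450-2 and Mir450-1 lie below 4 CPM.

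Every member had a lower CPM in replicate 2 than in replicate 1, but by unequal amounts. The log2 ratio of CPM, replicate 2 over replicate 1, was -0.18 for Mir322, -0.53 for Mir503 and -0.81 for Mir351. It was -0.20 for Mir542, -0.13 for Mir450b, -0.18 for Mir450-1 and -0.70 for Mir450-2. The median over the 6 detected members was -0.19, whereas the median over all 397 detected loci was 0.09. Of those 397 loci, 16 had a lower ratio than Mir351.

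An exact two-sided binomial test of the reads at each locus, adjusted over the 397 detected loci with the Benjamini-Hochberg method, called 4 of the 6 detected members lower in replicate 2. The same test called 22.7% of all detected loci lower and 32% higher, 90 and 127 loci. The adjusted p was 5.03e-53 for Mir322, 2.80e-10 for Mir503, 1.24e-78 for Mir351 and 0.0056 for Mir542 in this exact test. Mir450b and Mir450-1 did not pass, with adjusted p of 0.478 and 0.907 in the exact test, and Mir450-2 was not tested. The test compares 2 libraries and allows for counting error only, so a small p at a deeply counted locus can go with a small difference: Mir322 differed 1.13-fold. With library sizes scaled by TMM in edgeR the split of all loci moved to 119 lower (30%) and 95 higher (23.9%), the log2 ratios of the members were lower by 0.09, and 4 members were again called lower.

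The number of calls depended on how much variation between replicates the test allowed. When edgeR's exactTest was run at a dispersion of 0.01, Mir351 alone of the members passed (adjusted p = 0.00287), among 3.78% of detected loci called lower. With the common dispersion estimated from the same libraries taken as replicates, a biological coefficient of variation of 0.219, 0 members passed in edgeR's exactTest and 0 had an unadjusted p under 0.05 (1 with TMM scaling), among 1.26% of loci called lower. This dispersion came from the same pair of libraries whose difference it was set against, so the test gives no independent measure of the spread between midbrains.

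**Figure D2:**
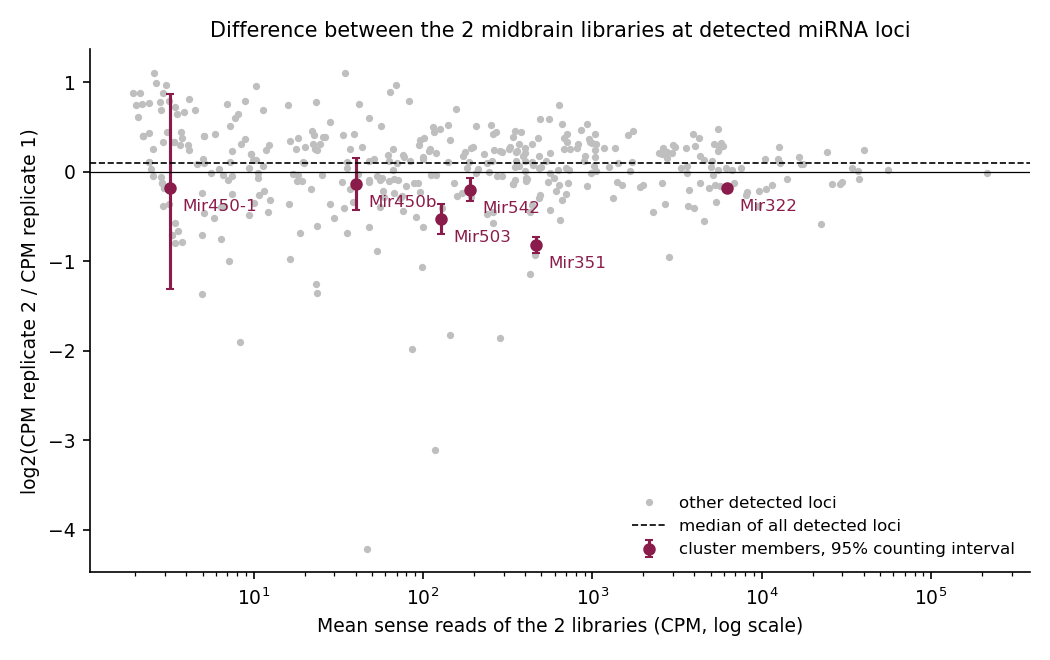
Log2 ratio of CPM (replicate 2 over replicate 1) against the mean CPM (log scale) for the 397 detected loci, with the 6 detected members in red and their exact 95% counting intervals. Mir351 at -0.81 and Mir503 at -0.53 lie below the other members, and the wide interval of Mir450-1 reflects 25 and 12 reads.

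Shares of the cluster's own reads compare the members without any scaling between libraries. The bounds given after each share are exact Clopper-Pearson 95% limits. Mir322 made up 86.9% of the cluster's reads (86.6 to 87.1) in the first library and 89.8% (89.4 to 90.2) in the second. Mir351 made up 7.84% (7.62 to 8.06) in replicate 1 and 5.21% (4.94 to 5.49) in replicate 2. Mir503 followed the same direction, from 1.99% (1.88 to 2.11) to 1.61% (1.46 to 1.78).

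Mir542 held 2.67% (2.54 to 2.81) and 2.72% (2.53 to 2.93), and Mir450b held 0.554% and 0.590%, with overlapping intervals in both cases. The ratio of Mir542 to Mir450b was 4.83 in replicate 1 and 4.62 in replicate 2. Mir322 exceeded Mir542 32.5-fold and 33.0-fold. Mir322 exceeded Mir450b, at the other end of the cluster, 157-fold and 152-fold. This pair thus kept its proportion in these libraries more closely than Mir322 and Mir351, whose hairpins start 996 nt apart. Mir322 exceeded Mir450-1 1926.9-fold and 1928.5-fold, on only 25 and 12 reads of Mir450-1, and Mir450-2 2007-fold and 2893-fold, on 24 and 8 reads. The counting interval of the log2 ratio of Mir450-2, -2.07 to 0.50, includes the -0.18 of Mir322. These counts are therefore too low to tell a kept proportion from a changed one.

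**Figure D3:**
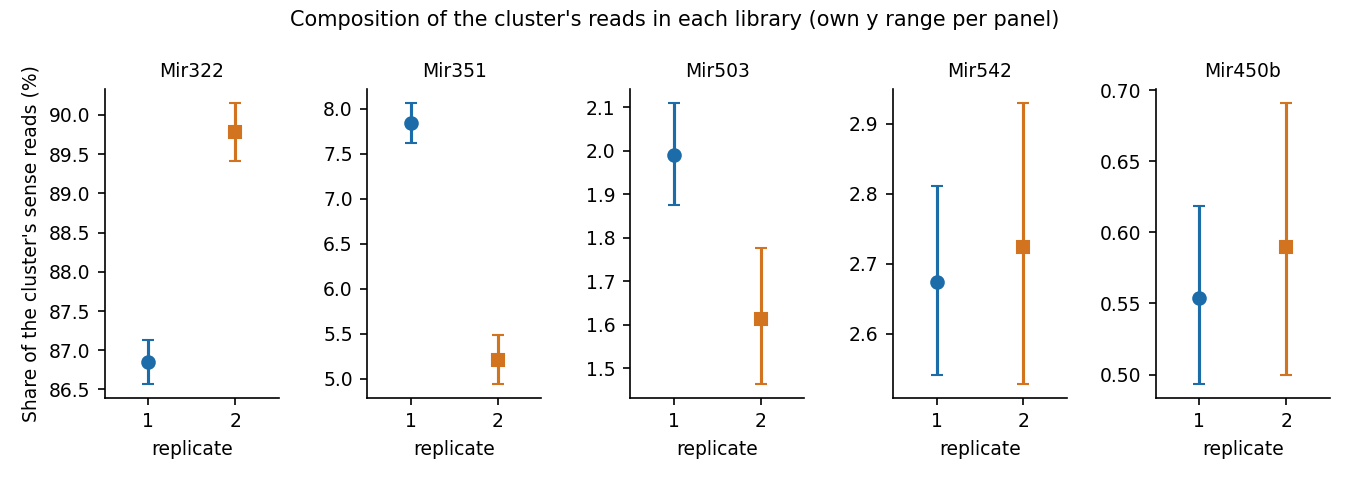
Share of the cluster's sense reads (%) for 5 members in replicate 1 (circle) and replicate 2 (square), each panel with its own y range and with exact 95% Clopper-Pearson intervals as bars. The intervals of Mir322, Mir351 and Mir503 do not overlap between libraries, while those of Mir542 and Mir450b do.

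Markers of other cell types differed between the libraries as well, in an exact binomial test that called 22.7% of all detected loci lower (30% with TMM). In the mesenchyme and meninges list 4 of 6 loci were detected and all 4 were called lower in replicate 2, and the summed level was 5850 CPM in replicate 1 and 3838 CPM in replicate 2. In that list Mir199b, Mir214, Mir143 and Mir145a had log2 ratios of -4.21, -1.82, -0.55 and -0.51. The endothelial miRNA Mir126a stood at 27037 and 18011 CPM, a log2 ratio of -0.59. Of 3 red cell loci 2 were called lower, with sums of 486 and 153 CPM, and of 4 white blood cell loci 3 were called lower, with sums of 403 and 178 CPM and Mir142b at 0. Mir142 and Mir142a matched no counted locus by symbol, so the 0 of Mir142b does not show that miR-142 was absent. With TMM the same loci of these lists were called lower.

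Of 15 neural loci, which mark the labelled tissue, 13 were detected, and their sum was 38553 CPM in the first library and 43754 CPM in the second. The exact binomial test called 8 of them higher and 0 lower in replicate 2, against 32% and 22.7% of all detected loci, and 5 detected loci did not pass. With TMM 5 were called higher and 1, Mir138-1, lower, against 23.9% and 30% of all detected loci. The median log2 ratio of the detected neural loci was 0.12, near the 0.09 of all detected loci. Among the neural loci with a ratio below 0 were Mir129-1 (-0.11) and Mir124a-1 (-0.38), neither of which passed, and the undetected Mir124a-3 (-0.62) and Mir9-2 (-2.18). Reads that fit several loci are not counted, so numbered copies such as those of Mir9, Mir124a, Mir128, Mir129 and Mir138 may be undercounted. The neural sum may be too low for that reason. Whether the lower values of Mir351 and Mir503 in replicate 2 go with fewer mesenchymal, vascular or blood cells was not tested, and in whole tissue fewer cells of a type and less RNA per cell cannot be told apart. The 6 skeletal muscle loci summed to 29.7 CPM in the first library and 37.3 CPM in the second. Most of these reads came from Mir206, with 167 and 119 reads, which was called higher in replicate 2 (log2 ratio 0.39) but not with TMM, while Mir133a-1 and Mir133a-2 had no read. Of these muscle loci Mir133a-1, Mir133a-2, Mir133b, Mir1a-1 and Mir1b share 21 to 31 nt with a sister locus, so their counts may be too low, while Mir206 shares at most 13 nt.

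**Figure D4:**
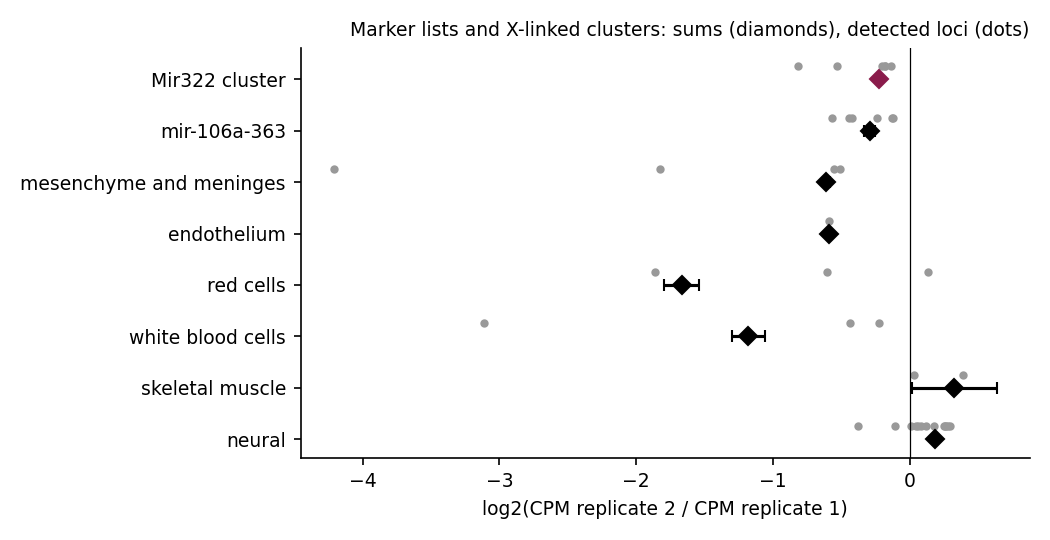
Log2 ratio of CPM (replicate 2 over replicate 1) for the summed reads of each list (diamonds, with exact 95% counting intervals) and for its detected loci (dots). The cluster at -0.23 lies close to the mir-106a-363 cluster at -0.29, below neural loci at 0.18 and above mesenchyme and meninges at -0.61.

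Among loci with its seed, Mir322 had the most reads placed at 1 locus. Reads of the exact miR-16-5p sequence, identical in Mir16-1 and Mir16-2, could not be placed, so the rank of Mir322 against these loci is uncertain. RefSeq listed 11 loci with the miR-322-5p seed, of which 10 were among the counted loci and 6 were detected. Mir6342, Mir6353 and Mir6419 had 0 reads, and Mir497 was not analysed here. Mir15a, from the Dleu2 transcript, followed at 5597 and 5062 CPM in replicates 1 and 2, below Mir322 in both libraries, and the difference of the means was larger than either SD (5330 ± 379 CPM against 6215 ± 539 CPM). Mir16-1, next to Mir15a, had 2692 ± 475 CPM and Mir15b 1714 ± 94.4 CPM. Mir195a and Mir16-2 had 664 ± 103 and 648 ± 167 CPM, a difference smaller than the SDs.

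Mir322 gave 35.9% of the reads at loci with this seed in replicate 1 and 36.1% in replicate 2. The exact Clopper-Pearson 95% limits, 35.6 to 36.2 and 35.7 to 36.5, overlapped. This share may be too high for the same reason, since Mir322 has no such copy. Because the counts join both arms, it is a share of reads at these loci, not of reads that carry the seed. Mir15b was called higher in replicate 2 (log2 ratio 0.11) but not with TMM, whereas Mir322, Mir15a, Mir16-1, Mir195a and Mir16-2 were called lower (-0.15 to -0.53). These calls are from the exact binomial test, which allows for counting error only. It called 22.7% of all detected loci lower and 32% higher (30% and 23.9% with TMM).

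Mir351, in contrast, was the lowest of the 4 detected loci with the miR-125 seed. Mir125a had 9551 ± 1757 CPM, Mir125b-1 3321 ± 72.4 CPM, Mir125b-2 2759 ± 210 CPM and Mir351 467 ± 182 CPM. Of the reads at loci with this seed, both arms counted, Mir351 made up 3.45% in the first library and 2.27% in the second. The exact Clopper-Pearson 95% limits were 3.35 to 3.55 and 2.15 to 2.39. Mir125b-1 and Mir125b-2 also hold an identical mature miRNA, so the share of Mir351 may be lower still. Loci with the seeds of Mir542 and of the Mir450 members outside the cluster, Mir6966 and Mir6352, had 1 and 0 reads over both libraries.

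**Figure D5:**
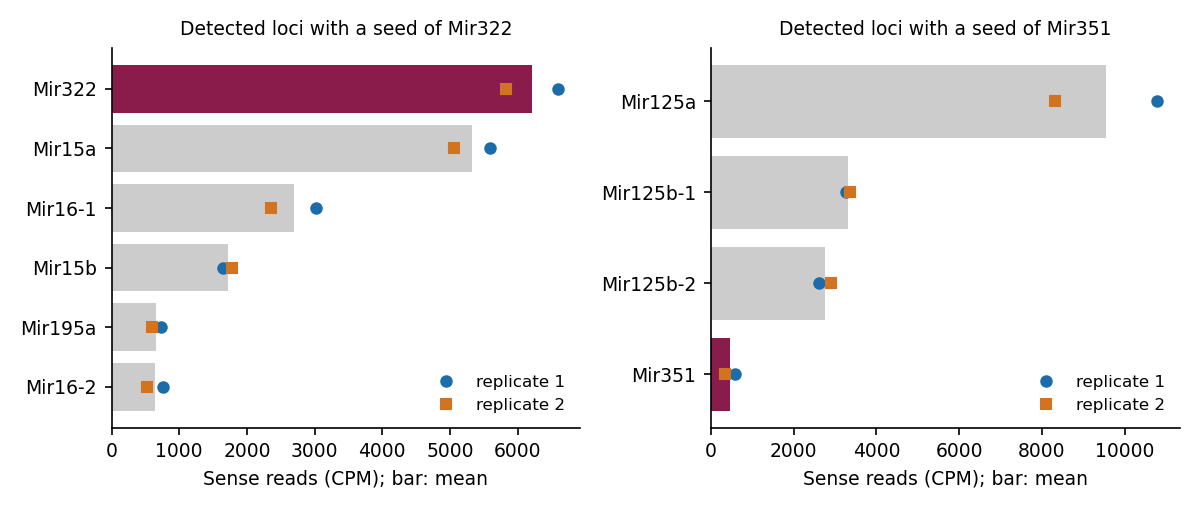
Sense reads (CPM, linear scale) of detected loci that share the seed of miR-322-5p (left) or miR-351-5p (right), with bars for the mean and symbols for each replicate. Mir322 at 6215 CPM is the tallest bar of its group, and Mir351 at 467 CPM the shortest of its group. The bars of Mir16-1 and Mir16-2 may lack reads of miR-16-5p, which is identical in both.

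Other miRNAs tied to growth and the cell cycle were detected at 12 of 17 loci, and 7 were called lower and 2 higher in replicate 2, against 22.7% and 32% of all detected loci. With TMM 7 were called lower and 1, Mir221, higher, against 30% and 23.9% of all detected loci. The list also holds the miR-15/16 loci above. The median log2 ratio of its detected loci was -0.21. Mir483, in the gene of the growth factor Igf2, had 138 CPM in replicate 1 and 35.0 CPM in replicate 2. Mir675, from the imprinted growth suppressor transcript H19, had 39 and 7 reads and was not tested. Mir221 and Mir222, which repress the cell cycle inhibitor p27 and lie on the X chromosome too, had log2 ratios of 0.27 (called higher) and 0.16 (adjusted p = 0.125 in the exact binomial test).

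On the X chromosome Mir322 had the most placed reads of 120 miRNA loci, ahead of Mir98 at 4320 ± 256 CPM and Mir652 at 3624 ± 16.7 CPM. The cluster made up 24.3% of X-linked sense reads in replicate 1 and 22.1% in replicate 2. The other members ranked in places 15 (Mir351), 21 (Mir542), 24 (Mir503), 35 (Mir450b), 39 (Mir450-1) and 40 (Mir450-2), and 39 X-linked loci were detected. Over the 33 detected X-linked loci outside the cluster the median log2 ratio was -0.12. The exact binomial test with plain totals called 14 of them lower and 9 higher in replicate 2, against 22.7% and 32% of all detected loci.

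The nearest other miRNA cluster, mir-106a-363, a paralog of the growth-promoting miR-17-92 cluster, lies 305 kb away on the same strand. It was detected at 6 of 6 loci and had a summed level of 2062 CPM in the first library and 1683 CPM in the second, so that the Mir322 cluster exceeded it 3.76-fold in the means. Its log2 ratio was -0.29 (exact 95% counting interval -0.33 to -0.25) and that of the Mir322 cluster -0.23 (-0.25 to -0.20), and 3 of its 6 loci were called lower (5 with TMM), against 22.7% of all detected loci (30% with TMM). Its reads were spread more evenly, with Mir363 at 722 ± 45.9 CPM, Mir106a at 561 ± 115 CPM and Mir20b at 429 ± 92.7 CPM; its lower members Mir92-2 and Mir19b-2 share 22 and 25 nt with their copies in the miR-17-92 cluster and may be undercounted.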

How the data were processed

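The authors deposited 1 table of raw read counts per library, with a count per miRNA gene for both strands, the annotated (sense) strand and the opposite strand. Assembly mm10 and annotation M4 are named in the text file that accompanies each table, whereas for aligner, counter and parameters no statement is given in the sources used here. Read classes outside genes were left out of library sizes: reads mapping to several places, unmapped reads (19.0% and 18.5% of all reads), reads in no miRNA gene (3.10% and 2.17%) and ambiguous reads.

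Gene identifiers, with the version dropped, were looked up in GENCODE M21 of the same assembly for symbols and positions (1894 of 1973 loci). Mature sequences and the printed hairpins were taken from RefSeq on GRCm38.p6. The longest stretches shared between hairpins were sought among the miRNA transcripts of GENCODE M21. CPM used the sum of sense counts over all miRNA loci. The reads of a detected locus were split between libraries and compared with the split of the totals in an exact two-sided binomial test (scipy 1.17.1), with Benjamini-Hochberg adjustment over 397 loci at 0.05. The test was checked on simulated data for the comparison of replicate 2 with replicate 1: over 388 loci it recovered 90.4% of 2-fold and 60% of 1.25-fold changes and called 2 of 199 unchanged loci. The simulated counts were Poisson, with counting error only, which is what the test assumes. The check therefore does not cover variation between replicates and gives no rate of false calls for these libraries. With 1 library on each side glmQLFTest could not be fitted, and edgeR 4.0.16 and DESeq2 1.42.0 served for alternatives in scaling and dispersion.

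The named loci were all members, the loci that share a seed with a member, fixed lists of growth, marker and neighbouring miRNAs, the leading X-linked loci and the loci nearest in level. The members and lists were chosen with earlier results of these data known.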

Additional observations from a re-analysis of the deposited data

How the results depend on the processing

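The share of the cluster in the sense reads, 0.705%, became 0.897% with the most abundant locus left out of the total and 0.0831% without Mir322, an alternative chosen after seeing the data; both follow from what was taken out. Leaving out a replicate gave 0.650% to 0.759% for this share, 6 to 7 members detected and a median member level of 105 to 151 CPM. The 4 members called lower became 1 in edgeR's exactTest at a dispersion of 0.01 and 0 at the estimated dispersion, also with TMM scaling, which was chosen after seeing the data; all loci called went from 217 to 22 and 5. With TMM, DESeq2 size factors, no filter, a minimum of 100 reads or unstranded counts, 4 members were called lower. In the same order, these settings called 30%, 30%, 12.3%, 29.2% and 22.9% of all tested loci lower. The log2 ratios of all 7 members stayed below 0 under every scaling and pseudocount run; their median was -0.20 with plain totals and -0.29 with TMM. No paired analysis was possible because the series has 1 group. Depth limits Mir450-1 and Mir450-2, whose counting intervals of the log2 ratio ran from -1.31 to 0.87 and from -2.07 to 0.50.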

Other observations

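The non-member loci closest to the 3 most abundant members in level, by Euclidean distance of log2(CPM + 1) over the 2 libraries, were as follows. Mir322 lay nearest to Mir181a-1 (6089 CPM in replicate 1 and 6272 CPM in replicate 2; distance 0.16) and Mirlet7d (5954 and 5329 CPM; distance 0.20). Mir351 lay nearest to Mir1298 (600 CPM in replicate 1 and 315 CPM in replicate 2, distance 0.11) and to Mir20b of the mir-106a-363 cluster (495 and 364 CPM, distance 0.29). Mir542 lay nearest to Mirlet7a-2 (211 and 173 CPM; distance 0.06) and Mir30b (180 and 186 CPM; distance 0.19). With 2 libraries this likeness covers 2 values a locus, and a similar ratio between the libraries follows from how the loci were picked.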
